A study of Mus musculus with 2 samples.

Results

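The genes described here encode the proteasome, its regulators and its assembly factors in long-term haematopoietic stem cells (LT-HSCs) that overexpressed the telomere protein Pot1a. They were taken by symbol, as every gene whose name is Psma, Psmb, Psmc, Psmd, Psme, Psmf or Psmg followed by a number and nothing else, and which had a probe set annotated to that gene alone. This gave 47 genes among the 22180 genes with such a probe set. Psma4 has no probe set of its own in the annotation used, since its probe sets are shared with another gene, and it is not reported. The choice of genes used no measured value, although it was made with earlier results of these arrays known.

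The study compared Pot1a-transduced with control-GFP LT-HSCs, with 1 Affymetrix gene array for each. Both groups were LT-HSCs from bone marrow of male C57BL/6J mice aged 10 weeks, gated as Lineage-, Sca-1+, c-Kit+, CD48- and CD150+. The cells were kept for 1 day in medium with stem cell factor and a further cytokine, received a retrovirus that carried either full-length wild-type Pot1a or no gene insert, and were sorted as GFP+ LT-HSCs after 3 more days. The vector given in the methods expresses GFP from the same transcript as Pot1a, so GFP marks transduced cells, and the number of mice pooled is not given in the sources used here. Since each group is a single array, replicate error cannot be estimated, differences were not tested and no p-value is given. The precision of every value is limited by this number of arrays. RNA was measured in bulk, in which fewer cells of a type and less RNA per cell cannot be told apart.

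Pot1a itself had a log2 intensity of 11.06 in the Pot1a array, against 8.08 in the control-GFP array, a difference of 2.98. The array medians were 52.6 for Pot1a and 53.1 for control-GFP over 34365 probe sets. All 11 measured genes of the LT-HSC marker list lay above the level used to separate bright from dim genes, 4 of them lower and 7 higher in the Pot1a array (median log2 difference 0.018). Kit stood at 11.66 in Pot1a and 11.54 in control-GFP cells and Slamf1, which encodes CD150, at 8.90 and 8.99. Some markers differed by more than the proteasome genes did at their median (-0.17), in both directions. Procr, which encodes the endothelial protein C receptor, was lower at 7.30 in Pot1a and 7.63 in control-GFP cells (-0.33). Gata2, a transcription factor gene of stem and progenitor cells, was higher at 10.19 and 9.87 (0.32). Cd34, likewise expressed in progenitor cells, was higher at 10.82 and 10.50 (0.32). The list thus mixes genes of LT-HSCs with genes shared with progenitors, and its median does not measure the share of LT-HSCs. Ly6a, the gene of Sca-1, has no probe set of its own in the annotation. Of 12 measured markers of other cells, 4 lay above that level, namely Cd48, Gata1, the platelet gene Pf4 and the endothelial gene Cdh5. The list of all 12 had a summed intensity of 1634 in Pot1a and 1574 in control-GFP cells, of which Pf4 alone made up 843 and 851. Its median log2 difference was 0.064 over the 4 brighter genes and 0.13 over all 12, against -0.0062 over all genes without a filter. Cd48, which the gate excludes at the protein level, had log2 intensities of 7.84 and 7.59 (0.25). The part of these markers in the differences below was not tested.

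The 26S proteasome degrades proteins that carry ubiquitin chains. Its 20S core is a barrel of stacked alpha and beta rings with the proteolytic sites inside, and the 19S particle at its end recognizes ubiquitin, removes the chains and threads the substrate into the core with a ring of ATPases. Blood and immune cells can replace the catalytic beta subunits by interferon-inducible versions to form the immunoproteasome, other activators can take the place of the 19S particle, and dedicated chaperones assemble each part. LT-HSCs are known for a low rate of protein synthesis and for a strict need of protein quality control. Neither was measured here.

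Proteasome genes had lower intensities in the Pot1a array than in the control-GFP array, by a small amount that most of them shared. Of 47 members, 45 had a mean log2 intensity over both arrays at or above the median of all gene means, which was 6.04, and 39 of these 45 were lower and 6 higher in the Pot1a array. Their median log2 difference, Pot1a minus control-GFP, was -0.17, which is 0.888-fold of the control-GFP level, with single genes between -0.41 and 0.21. Over all 11090 genes kept by the same filter the median difference was 0.0011, and 48.8% of genes were lower in Pot1a cells, against 86.7% of the proteasome genes. The filter used the mean of both arrays and so favoured neither of them.

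The differences were small for each gene and somewhat less dispersed than those of all genes kept. At least 1.1-fold lower in Pot1a cells were 28 of 45 members (62.2%), against 23.3% of all genes kept, and at least 1.1-fold higher were 2 (4.44%), against 21.3%. At least 1.2-fold lower were 7 of 45 (15.6%), against 8.31%, and 0 members were 1.2-fold higher, against 6.85%. No member reached a 2-fold difference, a size that 0.0271% of all genes kept had (3 genes, Pot1a included). The SD of the difference was 0.13 across the 45 members and 0.19 across all genes kept, Pot1a included. Above the 75th percentile of mean expression it was 0.13 for the members and 0.18 for the other genes. Thus the members did not hold the lowest values on the array, but lay mostly below 0. At or below the 25th percentile of all genes kept (-0.13) were 28 of 45, and 15 lay between the 25th and 75th percentiles. Only Psma7 lay below the 5th percentile (-0.32).

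**Figure D1:**
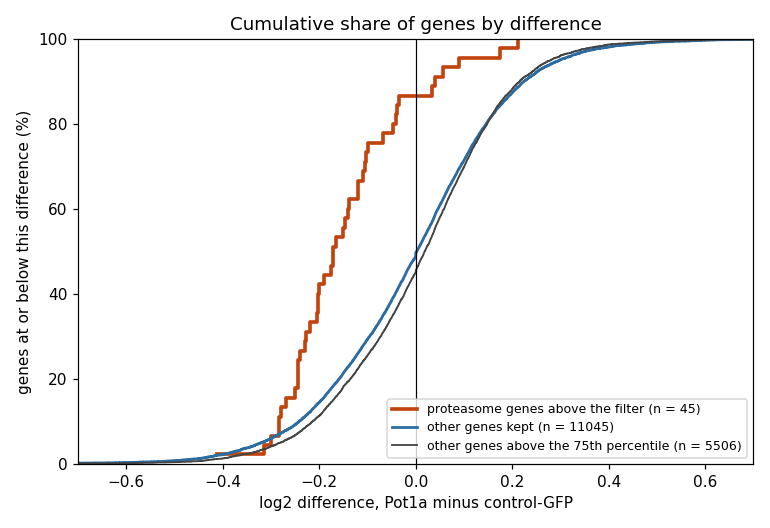
Cumulative share of genes (%, vertical axis) against the log2 difference, Pot1a minus control-GFP, for the 45 proteasome genes above the filter, for the 11045 other genes kept and for the other genes above the 75th percentile of mean expression, which number 5506. The curve of the proteasome genes lies left of the other curves over most of the range and reaches 86.7% at 0, while below about the 5th percentile of all genes (-0.32) the curves lie close to each other.

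Many proteasome genes were bright on these arrays, and the shift was also seen against bright genes alone. Above the 75th percentile of mean expression 34 of 39 members were lower (87.2%), against 45.4% of the 5545 genes there. At least 1.1-fold lower were 24 of 39 (61.5%), against 19.9%, and at least 1.2-fold lower were 6 of 39 (15.4%), against 6.02%. Across the 45 members the difference had a Pearson correlation of -0.12 and a Spearman correlation of -0.14 with mean log2 intensity, and across all genes kept these were 0.071 and 0.084. These are descriptions across genes of the same pair of arrays, and genes are not independent replicates.

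**Figure D2:**
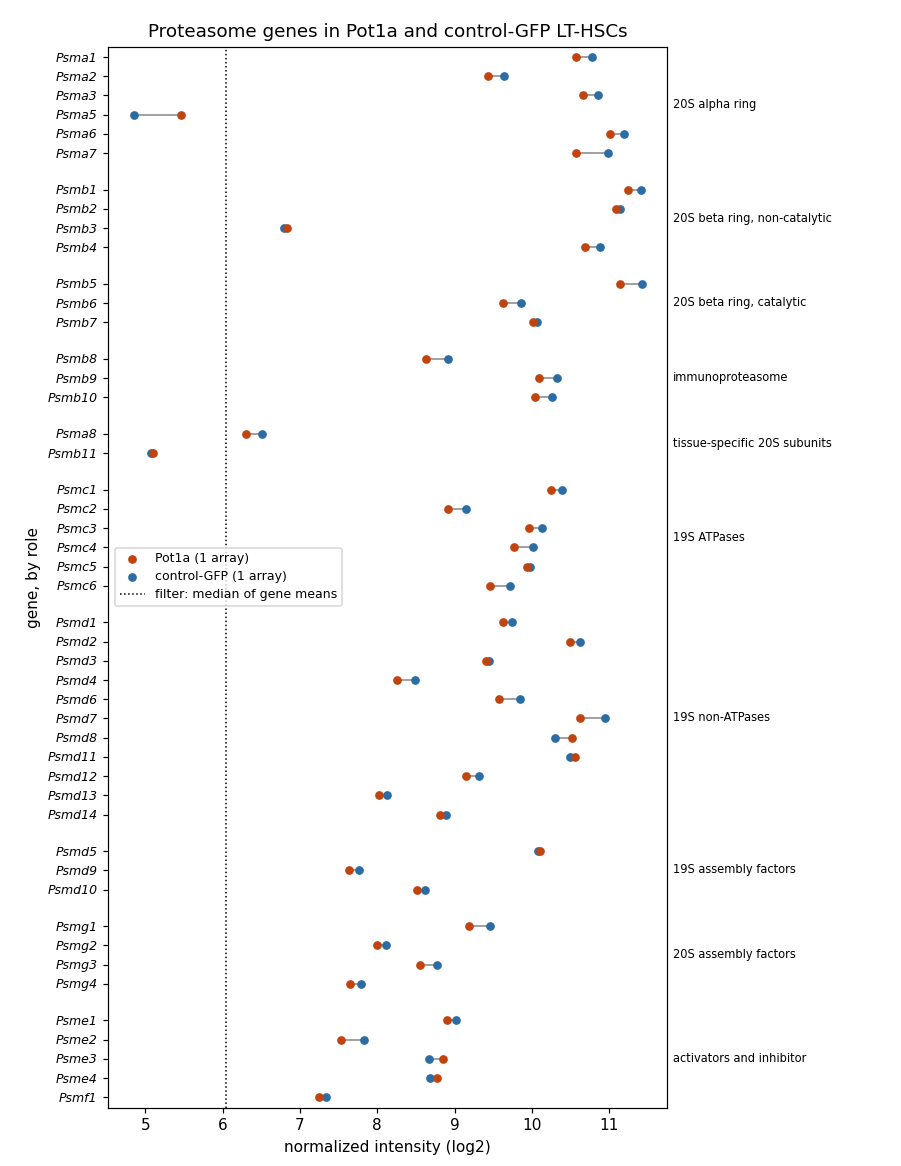
Normalized intensity (log2, horizontal axis) of each of the 47 proteasome genes in the Pot1a array and in the control-GFP array, grouped by role, with a dotted line at the filter. Pot1a lies left of control-GFP for 39 genes above the line; Psmd8, Psme3, Psme4, Psmd11, Psmb3 and Psmd5 are reversed, and Psma5 and Psmb11 lie below the line. Intensities of different genes come from different probes and are not set against each other.

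The regions around the start of the genes are shown for 5 members, because proteasome genes are known to be switched on together by NRF1 (Nfe2l1) through antioxidant response elements in their promoters. They are Psma7, with the lowest difference, Psmd8, with the highest, Psmb6 and Psmc6, which hold the antioxidant response element core, and the immunoproteasome gene Psmb9. Each runs 5′ to 3′ along the gene from 250 bases before a transcription start to 50 bases after, from RefSeq, build GRCm38.p6. That start is the first base of the gene in the RefSeq gene table for 33 of 42 such windows of members, but for Psmb6 it lies 33 bases and for Psmc6 1 base inside it. Capitals mark TGACNNNGC (the core of the antioxidant response element), CCAAT (the box bound by the factor NF-Y), the GC box GGGCGG and GAAANNGAA (an interferon response core), searched on both strands, so that a match to the other strand stands in its reverse complement. Psma7 lies on chr2:180042415-180042714 (minus strand), Psmb6 on chr11:70525107-70525406 (plus), Psmb9 on chr17:34187281-34187580 (minus), Psmc6 on chr14:45329574-45329873 (plus) and Psmd8 on chr7:29180624-29180923 (minus).
Psma7: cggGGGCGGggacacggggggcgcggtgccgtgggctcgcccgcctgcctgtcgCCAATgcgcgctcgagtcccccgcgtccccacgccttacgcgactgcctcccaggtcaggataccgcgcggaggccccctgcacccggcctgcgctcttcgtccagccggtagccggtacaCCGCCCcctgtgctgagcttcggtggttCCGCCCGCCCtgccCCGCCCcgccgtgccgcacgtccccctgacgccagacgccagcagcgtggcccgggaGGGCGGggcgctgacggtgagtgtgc
Psmb6: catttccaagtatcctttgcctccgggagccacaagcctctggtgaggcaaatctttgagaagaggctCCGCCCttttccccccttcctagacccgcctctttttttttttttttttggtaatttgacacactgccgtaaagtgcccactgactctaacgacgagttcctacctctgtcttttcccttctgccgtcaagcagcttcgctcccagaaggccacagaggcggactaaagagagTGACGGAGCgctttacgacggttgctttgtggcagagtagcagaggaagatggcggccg
Psmb9: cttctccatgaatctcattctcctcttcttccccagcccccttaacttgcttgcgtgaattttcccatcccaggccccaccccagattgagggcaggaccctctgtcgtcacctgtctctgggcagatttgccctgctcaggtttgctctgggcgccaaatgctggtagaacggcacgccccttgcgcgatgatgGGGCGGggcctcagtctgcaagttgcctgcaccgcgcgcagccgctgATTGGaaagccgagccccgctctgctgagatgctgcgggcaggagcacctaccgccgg
Psmc6: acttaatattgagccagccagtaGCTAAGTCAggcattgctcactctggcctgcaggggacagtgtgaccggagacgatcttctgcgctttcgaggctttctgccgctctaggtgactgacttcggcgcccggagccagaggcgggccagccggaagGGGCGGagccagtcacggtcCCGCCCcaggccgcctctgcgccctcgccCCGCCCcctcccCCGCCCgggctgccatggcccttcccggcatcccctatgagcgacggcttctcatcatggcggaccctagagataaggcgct
Psmd8: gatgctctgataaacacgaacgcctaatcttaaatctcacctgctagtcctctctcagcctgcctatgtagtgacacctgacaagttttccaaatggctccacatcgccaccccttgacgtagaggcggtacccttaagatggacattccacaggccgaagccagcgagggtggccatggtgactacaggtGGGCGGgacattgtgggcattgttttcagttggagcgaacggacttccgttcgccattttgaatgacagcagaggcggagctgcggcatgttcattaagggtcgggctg

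In the printed regions the antioxidant response element core of Psmb6, with the letters TGACGGAGC, began 9 bases before the start used for the window, which is 24 bases after the start of the gene in the gene table. In Psmc6 it lay on the opposite strand, beginning 227 bases before the start used. Psma7 held 6 GC boxes and 1 CCAAT, Psmc6 4 GC boxes, and Psmd8 a single GC box as its only match. Promoter regions were found for 39 of the 47 members, in 42 windows; Psma8, Psmb1, Psmb2, Psmb7, Psmc3, Psmd3, Psmd7 and Psmg2 had none. The core TGACNNNGC was in 6 of 42 windows (14.3%), those of Psmb5, Psmb6, Psmc6, Psmd9, Psmd12 and Psme4, against 12.4% of 32851 windows of all genes and 14.1% of windows of the genes kept. In Psmd9 the match overlaps a GC box. Of the 6 genes with the core, 5 were lower in Pot1a cells, with a median difference of -0.20, and of 31 members above the filter whose windows lacked it, 26 were lower, with a median of -0.18. CCAAT was in 33.3% of the members' windows (37.4% of all windows), the GC box in 54.8% (35.7% of all windows and 62.8% of those of the genes kept) and GAAANNGAA in 16.7% (8.56% of all windows and 7.01% of those of the genes kept). The last was found in Psmb3, Psmb4, Psmc2, Psmd4, Psmd9, Psme1 and Psmg4. For CCAAT, members above the filter with and without a match had median differences of -0.19 and -0.16. These medians were -0.15 and -0.20 for the GC box, and -0.15 and -0.18 for GAAANNGAA. A match is a description of these letters and not a site.

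In the 20S core, 11 of 12 constitutive subunit genes above the filter were lower in Pot1a cells, with a median of -0.20. The outer alpha rings, whose tails form the gate of the barrel, had 5 genes above the filter and all 5 were lower (median -0.20). Psma7 had a log2 intensity of 10.57 in Pot1a and 10.98 in control-GFP cells. Its difference of -0.41 was the largest in the family, and 1.99% of all genes kept were lower still. The other 4 lay within a narrow range. Psma1 stood at 10.57 in Pot1a and 10.77 in control-GFP cells (-0.20), Psma2 at 9.44 and 9.64 (-0.20), Psma3 at 10.66 and 10.85 (-0.19) and Psma6 at 11.01 and 11.18 (-0.18).

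Psma5, also an alpha ring gene, was dim and gave no usable direction. The probe set that stands for it had a log2 intensity of 5.47 in Pot1a and 4.85 in control-GFP cells (0.62), below the filter of 6.04, while its other probe set had 5.05 and 5.22 (-0.17). Both probe sets were dim although the alpha ring needs this subunit, so the values say little about its RNA. The tissue-specific alpha subunit gene Psma8, which belongs to the proteasome of male germ cells, was just above the filter at 6.30 in Pot1a and 6.51 in control-GFP cells (-0.21). Psmb11, of the proteasome of the thymic cortex, was below it at 5.10 and 5.07 (0.026).

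The inner beta rings hold the proteolytic sites. Psmb5, the chymotrypsin-like subunit and the main target of proteasome inhibitors, had a log2 intensity of 11.14 in Pot1a and 11.42 in control-GFP cells (-0.28). Psmb6, the caspase-like subunit, stood at 9.62 and 9.86 (-0.24), whereas Psmb7, the trypsin-like subunit, stood at 10.01 and 10.06 (-0.048). Hence 2 of the 3 catalytic genes were low among all genes kept, of which 7.06% and 9.87% had a lower difference, and the third lay near the middle, with 39.2% of genes lower. The non-catalytic beta subunits, which complete the ring, had a median of -0.11. Psmb1 stood at 11.24 in Pot1a and 11.41 in control-GFP cells (-0.17) and Psmb4 at 10.68 and 10.88 (-0.20). Psmb2 had 11.09 and 11.13 (-0.042), and Psmb3 6.83 and 6.79 (0.039), the single constitutive core gene above the filter that was higher. The mean of Psmb3 lay above that of only 61.3% of genes. With the filter at the 75th percentile, which left Psmb3 out, the median of the non-catalytic beta subunits was -0.17.

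All 3 genes of the immunoproteasome were lower in Pot1a cells, with a median of -0.24. Psmb8, which takes the place of Psmb5, had 8.63 in Pot1a and 8.91 in control-GFP cells (-0.28). Psmb9, which replaces Psmb6, had 10.08 and 10.33 (-0.24), and Psmb10, which replaces Psmb7, had 10.04 and 10.26 (-0.22). The inducible and constitutive partners of the first and second of these pairs were thus lower by nearly the same amount, with differences between partners of -0.00056 for Psmb8 and Psmb5 and of -0.00084 for Psmb9 and Psmb6. The difference of Psmb10 minus that of Psmb7 was -0.17. Without replicates it is not known whether a gap of this size exceeds the spread between arrays. Nor is it known whether the near-equal differences of the first and second pairs would recur.

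**Figure D3:**
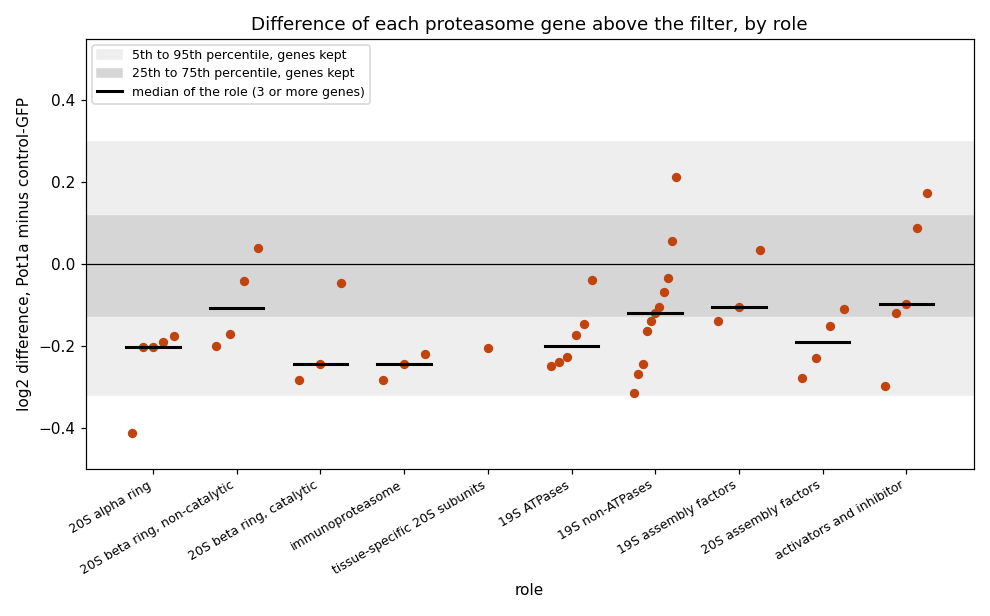
Log2 difference, Pot1a minus control-GFP (vertical axis), of each of the 45 proteasome genes above the filter (points), by role (horizontal axis), with the median of roles of 3 or more genes (bars) and, in grey, the ranges of single genes among all 11090 kept, for the points and not for the bars. Role medians run from -0.24 for the immunoproteasome and the catalytic beta subunits to -0.098 for the activators, whose genes lie on either side of 0.

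The 19S particle, which caps the core, had 17 subunit genes above the filter, of which 15 were lower (median -0.15). Its ATPases, the ring of motor proteins that unfolds substrates, were lower in all 6 genes (median -0.20). Psmc6 had a log2 intensity of 9.46 in Pot1a and 9.71 in control-GFP cells (-0.25), Psmc4 9.77 and 10.01 (-0.24) and Psmc2 8.91 and 9.14 (-0.23). Psmc3 had 9.96 and 10.13 (-0.17), Psmc1 10.24 and 10.39 (-0.15) and Psmc5 9.94 and 9.98 (-0.038). Psmc2 has a dimmer probe set besides, which had 7.08 and 7.09 (-0.013). The ATPases thus ran from the low end of all genes kept (Psmc6, with 9.26% of genes lower) to near the middle (Psmc5, with 41.2% lower).

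The non-ATPase subunits of the 19S particle were more dispersed, with 9 of 11 lower, a median of -0.12 and an SD of 0.15, against an SD of 0.080 among the ATPases. Psmd7, the scaffold partner of the deubiquitinase, had 10.62 in Pot1a and 10.94 in control-GFP cells (-0.31), and Psmd6 of the lid had 9.57 and 9.84 (-0.27). Psmd4, a ubiquitin receptor, had 8.25 and 8.49 (-0.24). These are the members with the lowest differences in this role, while the deubiquitinase gene itself, Psmd14, had 8.82 in Pot1a and 8.88 in control-GFP cells (-0.068). Psmd8, a lid subunit, was the highest of the whole family, at 10.51 in Pot1a and 10.30 in control-GFP cells (0.21). Psmd11, also of the lid, had 10.55 and 10.50 (0.056).
The scaffold genes Psmd1 and Psmd2 had differences of -0.12 (9.62 in Pot1a and 9.74 in control-GFP cells) and -0.14 (10.49 and 10.63). Of the remaining lid genes, Psmd12 differed by -0.16, Psmd13 by -0.10 and Psmd3 by -0.035. Sorting the subunits by position, a split made after the values were seen, all 8 measured genes of the base (the ATPases with Psmd1 and Psmd2) were lower, with a median of -0.16. Of 8 lid genes with a Psm symbol 6 were lower, with a median of -0.086 and a range from -0.31 to 0.21. Psmd4 (-0.24) was placed in neither part, and the lid gene Sem1 (-0.20), which has no Psm symbol, was not counted.

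Assembly factors were also mostly lower, with 6 of 7 genes and a median of -0.14. The chaperones that build the alpha ring were lower in all 4 genes. Psmg1 had 9.18 in Pot1a and 9.46 in control-GFP cells (-0.28), and its partner Psmg2 had 8.00 and 8.11 (-0.11), although the dimmer probe set of Psmg2 had 7.06 and 6.70 (0.36), in the other direction. In the other chaperone pair, Psmg3 had 8.55 and 8.77 (-0.23) and Psmg4 7.64 and 7.79 (-0.15). The chaperones of the 19S base were nearer to 0, with Psmd9 at 7.63 in Pot1a and 7.77 in control-GFP cells (-0.14), Psmd10, which encodes gankyrin, at 8.51 and 8.62 (-0.10) and Psmd5 at 10.11 and 10.07 (0.033).

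The activators and the inhibitor lay on either side of 0, with 3 of 5 genes lower and a median of -0.098. The genes of the interferon-inducible activator PA28 alpha-beta were lower, with Psme2 at 7.53 in Pot1a and 7.83 in control-GFP cells (-0.30) and Psme1 at 8.90 and 9.02 (-0.12). The difference of Psme2 minus that of its partner was -0.18, and a probe set annotated to Psme2 together with other genes was not used. In contrast, Psme3, which encodes the nuclear activator PA28 gamma, was higher at 8.84 in Pot1a and 8.67 in control-GFP cells (0.17), as was Psme4, which encodes the nuclear activator PA200, at 8.77 and 8.68 (0.089). Psmf1, whose protein inhibits the 20S core in vitro, had 7.24 and 7.34 (-0.098). When only genes above the 75th percentile were kept, Psme2 and Psmf1 dropped out and the median of this role turned to 0.089.

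A list of genes with other symbols, whose proteins belong to the proteasome or act with it, was split. It mixes a subunit and a maturation factor with associated enzymes and adaptors, so its median does not stand for the subunits. Of 10 measured genes 5 were lower and 5 higher in Pot1a cells (median -0.020). Akirin2, which is needed to bring proteasomes into the nucleus, had the lowest value, at 8.65 in Pot1a and 9.08 in control-GFP cells (-0.43). The lid subunit gene Sem1 stood at 10.86 and 11.06 (-0.20), the deubiquitinase gene Uchl5 at 10.53 and 10.71 (-0.19) and Pomp, the maturation factor of the 20S core, at 10.22 and 10.36 (-0.14). The genes that were higher were Txnl1, a thioredoxin-like protein of the 19S particle, at 11.14 and 11.00 (0.14), the deubiquitinase gene Usp14 at 8.27 and 8.16 (0.11) and the adaptor gene Ecpas at 9.46 and 9.37 (0.091), along with the ubiquitin ligase genes Ubr4 (0.042) and Ube3c (0.041). The proteasome activator gene Zfand5 differed by -0.080. Adrm1 and Paaf1 had no probe set of their own in the annotation.

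Genes that act before the proteasome had list medians above 0. Of all genes kept, 5560 of 11090 were higher in Pot1a cells, with a median of 0.0011. Nfe2l1, the transcription factor gene named above, had a log2 intensity of 8.00 in Pot1a and 7.75 in control-GFP cells (0.25), and its relative Nfe2l2, which encodes NRF2, 8.08 and 7.97 (0.10). Ngly1, which is required to activate NRF1, differed by -0.0066. With the genes of the CCAAT-binding factor NF-Y, of which Nfyb differed by 0.23, Nfya by 0.11 and Nfyc by 0.10, 5 of 6 genes in this list were higher (median 0.11). The shuttle factor gene Rad23b, whose protein delivers ubiquitinated substrates, was higher at 10.46 in Pot1a and 10.12 in control-GFP cells (0.34), and so were Ubqln4 (0.21), Ubqln1 (0.12) and Ubqln2 (0.11), while the E1 enzyme gene Uba6 differed by -0.052. In this list 4 of 5 measured genes were higher (median 0.12), and 6 of its 11 genes, those of ubiquitin among them, had no probe set of their own. Vcp, which extracts ubiquitinated proteins from membranes and complexes, had 10.67 and 10.74 (-0.070), and its cofactor genes ran from Ufd1 at -0.13 to Nploc4 at 0.19. In this list 5 of 9 genes were higher (median 0.031), near the share of all genes kept. With the filter at the 75th percentile its median was 0.016, against 0.018 for all genes there.

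**Figure D4:**
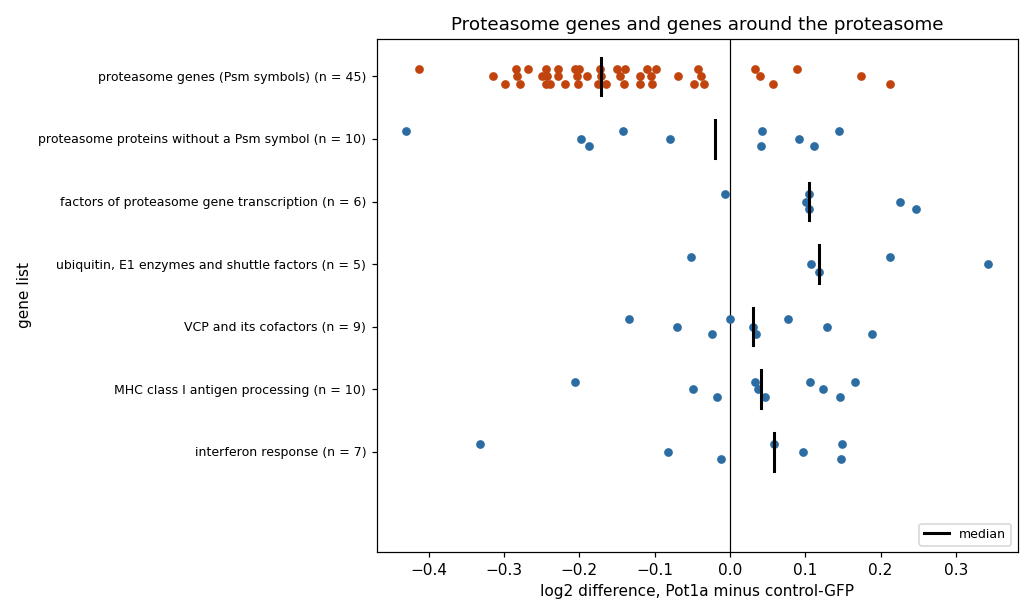
Log2 difference, Pot1a minus control-GFP (horizontal axis), of each gene above the filter in the proteasome family and in 6 lists of genes around it (points), with each list's median (bars). The proteasome genes have a median of -0.17, and the medians of the other lists run from -0.020 to 0.12.

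The other genes of antigen presentation and the interferon-stimulated genes lay on either side of 0, whereas the 3 immunoproteasome genes were all below it. Of 10 measured genes of MHC class I antigen processing, 7 were higher and 3 lower (median 0.042), from H2-K1 at -0.21 to the tapasin gene Tapbp at 0.17. All 10 lay above the 75th percentile, where 3001 of 5545 genes were higher, and of all genes kept 5560 of 11090 were higher. Nlrc5, also of this list, differed by -0.049. B2m, the light chain of MHC class I, had 12.55 in Pot1a and 12.57 in control-GFP cells (-0.017). Psmb9 and the peptide transporter gene Tap1 start 226 bases apart on opposite strands of chromosome 17 (GRCm38.p6) and are known to share a promoter region. Tap1 stood at 10.78 in Pot1a and 10.74 in control-GFP cells (0.033), against 10.08 and 10.33 for Psmb9 (-0.24), and Tap2, of the same locus, differed by 0.11, against -0.28 for Psmb8. Among 7 interferon-response genes above the filter 4 were higher and 3 lower (median 0.058), with Isg15 at 6.69 in Pot1a and 7.03 in control-GFP cells (-0.33), Stat2, the brightest, at 8.56 and 8.64 (-0.082), Irf7 at 7.49 and 7.34 (0.15) and Irf1, a direct activator of immunoproteasome genes, at 7.11 and 6.96 (0.15). The interferon-response genes Mx1 (-0.41) and Ifit1 (0.082) were dim and lay below the filter. No test between these lists was possible with 1 array per group.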

How the data were processed

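Gene expression was measured on 1 Affymetrix array for Pot1a-transduced and 1 for control-GFP LT-HSCs. Values as deposited are normalized, linear intensities of 34365 probe sets. The authors' methods give Expression Console, RMA and quantile normalization, but describe arrays of aged cells, and how the 2 present arrays were processed is not given in the sources used here. Background is unknown, as no detection calls were used.

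Log2 was taken, and differences are Pot1a minus control-GFP. Genes came from the platform annotation: 23521 probe sets had 1 symbol, 1820 several and 9024 none. All 47 members matched the GRCm38.p6 gene table by gene ID with the same symbol. The brightest probe set stood for a gene (3 members had more than 1). Genes were kept when their mean log2 was at or above the median of 22180 genes (11090 genes).

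Counts were made at 1.1-fold, 1.2-fold and 2-fold. All members were named with their values or differences; in the other lists the extremes, the brightest gene and genes that act on a member were named, and others were added after their values were seen. Members, roles and lists were chosen with earlier results of these data known, and the base and lid split was added later. Alternatives were averaged probe sets, other filters, loess (fraction 0.3), median centring, a pseudocount of 16, a 1.1-fold threshold, leaving out 3 members and the mean. The steps were checked on simulated data. Python 3.11.15, numpy 2.4.6, pandas 2.3.3, scipy 1.17.1, statsmodels 0.14.6 and matplotlib 3.10.9 were used. A detail of the culture is not reported here.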

Additional observations from a re-analysis of the deposited data

How the results depend on the processing

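The median log2 difference of the proteasome genes ranged from -0.18 to -0.15 over 9 alternatives. Over 7 of them 34 to 39 members were lower, the lowest number being that of the 39 members above the 75th percentile. The number of members counted ran from 39 to 47 (no filter). Of all genes under these alternatives, 45.4% to 50.7% were lower. The count at least 1.2-fold lower, 7 of 45 (8.31% of all genes kept), depends on the threshold and on the processing. It was 28 with a 1.1-fold threshold (23.3% of all genes kept). At 1.2-fold it was 10 of 45 after loess correction (8.00% of all genes kept). With the 75th percentile filter it was 6 of 39 (6.02% of the genes there). Without the 3 lowest members the median was -0.16, and the mean over members was -0.15. Of the role medians, that of the activators and the inhibitor turned to 0.089 with the filter at the 75th percentile, which left 3 of its 5 genes, and that of the non-catalytic beta subunits was then -0.17. Of the other lists, that of LT-HSC genes had a median of 0.018, or -0.0017 after loess correction. Counting each role or list median once for each alternative, 107 values stayed within a factor of 1.5 of the main value, 7 moved further and 2 turned their sign. No paired analysis was possible because there is a single array of each kind, which also means that leaving out a replicate was not possible. The number of arrays limits what these values can show, and dim genes such as Psma5, whose probe sets differ in direction, may lie at background.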
